A study of Xenopus laevis with 3 samples.

Results

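Genes of the mitotic spindle, the kinetochore and the tubulins were read on 219 probe sets out of 32475 in gastrula embryos of the frog *Xenopus laevis*, for 122 genes out of 9240 with a single symbol. They were picked by symbol alone, without their values: every probe set with a single gene symbol starting with a fixed set of name stems (kif, cenp, bub, mad1l, mad2l, aurk, plk1, plk4, ndc80, nuf2, spc24, spc25, incenp, birc5, cdca, tpx2, tuba, tubb, tubg, tubgcp, anapc, cdc20, cdc27, smc, ncap, espl, pttg, stmn, mapre, dync, dynl and dctn). *X. laevis* carries 2 subgenomes, so many genes exist as a pair of copies called homeologs, .L and .S, and with these counted apart the members were 162 genes. A name stem is not a function, and cdca4, cdca7, cdca7l, smco4 and the pttg1ip genes were taken in by their names without being spindle proteins.

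The study asked which transcripts change when embryonic cells are depolarized, that is when the resting voltage across their membrane is made less negative. There were 3 conditions with 1 array each, every array holding RNA pooled from 50 embryos frozen at stage 11, a gastrula stage. Control embryos had been injected with water. GlyR+IVM embryos had received mRNA of a glycine-gated chloride channel and were kept in ivermectin, a drug that opens it. DN-KATP embryos had received mRNA of the 666 chimera, a dominant negative subunit of the ATP-sensitive potassium channel. No other genotype or agent is named for any group. The methods and the sample labels name different early stages for the injection. Nothing restricted the mRNA to a cell type, and the whole embryo was measured. Since controls carried no injected mRNA, and no ivermectin treatment of them is stated, mRNA injection, drug and channel cannot be told apart. With whole embryos, fewer cells of a type and less RNA per cell cannot be told apart either. Of 29 probe sets for 15 gastrula marker genes, 27 reached a signal of 40 in Control, 27 under GlyR+IVM and 27 under DN-KATP. Of 22 probe sets for 9 genes of tissues that form later, 2 reached 40 in Control, 7 under GlyR+IVM and 2 under DN-KATP, with summed signals of 461, 721 and 485. The part of that difference in the results below was not tested.

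At mitosis the duplicated chromosomes are condensed by SMC complexes and captured by microtubules, polymers of alpha and beta tubulin that grow from gamma tubulin rings. Capture happens at the kinetochore, a protein plate built on centromeric chromatin, while kinesin and dynein motors shape the spindle, and the chromosomal passenger complex and the spindle checkpoint correct and time the attachments before the anaphase-promoting complex frees the sister chromatids. The frog egg stores much of this machinery as maternal RNA and protein for its rapid cleavage divisions, and by gastrulation the cell cycle has lengthened and the embryo's own genes are transcribed.

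A signal is the brightness of a probe set on a linear scale, and the median signal over all probe sets was 93.3 in Control, 97.3 under GlyR+IVM and 102 under DN-KATP. Signals of different probe sets were not set against each other, since each probe set binds with its own strength. A probe set was counted as measured when the geometric mean of its 3 signals was at least 40. That held for 180 of the 219 members (82.2%) against 20885 of all probe sets (64.3%), and 109 of the 122 genes had a measured probe set. The 39 unmeasured members comprised 31 under 40 in all arrays and 8 that reached 40 in at least 1 array, and ratios among them are not described further because both sides are near or below the floor. A probe set was called higher or lower when a signal differed from Control at least 2-fold and the higher of both signals was at least 40. With 1 array a condition there is no replicate error, so no difference could be tested and every ratio is a value of these arrays alone. Both comparisons use the same Control array, so a high or low Control signal enters both ratios of a gene.

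Few spindle genes passed the 2-fold rule. Of the 219 members none was called higher in both depolarized arrays, against 1.25% of all probe sets, and 1 was called lower in both (0.457%, against 0.471% of all probe sets). The latter was cdca9.S, a Dasra subunit of the chromosomal passenger complex. Counting each array by itself, 2 members were called higher in GlyR+IVM (0.913%, against 3.41% of all probe sets), namely dynll1.S and tubb6.L, and 5 were called lower (2.28%, against 2.02%), namely both probe sets of birc5.S, cdca9.S, tubal3.1.L and kif19.S. In DN-KATP 4 members were called higher (1.83%, against 3.89%), of which kif19.S and ncaph2.L were measured and 1 probe set of mapre2.S (19.4 in Control and 41.5 in DN-KATP) and dync2i2.L (10.6 and 44.1) had geometric means under 40. There 1 member, cdca9.S, was called lower (0.457%, against 1.83%). Read against the background, the share called lower in GlyR+IVM was close to that of all probe sets at these settings. It depended on how dim probe sets were treated. With a floor of 100 it was 1.83%, against 0.973%, and with 32 added to every signal 2.28%, against 0.825%. Without a floor it was 5.02%, against 7.8%. The shares called higher, and the share called lower in DN-KATP, were below those of all probe sets. Among measured probe sets alone, 1.11% of members were higher and 2.78% lower in GlyR+IVM, against 3.31% and 2.1%. In DN-KATP 1.11% were higher and 0.556% lower, against 3.88% and 2.05%.

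A looser rule brought in a few more genes. At 1.5-fold, 3 members were higher in both arrays, namely kif20a.S, dynlt5.S and cenps.L (1.37%, against 3.88% of all probe sets). At the same fold 6 were lower in both (2.74%, against 2%). Besides cdca9.S and both birc5.S probe sets, these were cdca5.S, which codes for the cohesin-protecting protein sororin, 1 of 5 probe sets of cdca4.S and smco4.L. Of these 6 probe sets, 5 belong to the passenger and cdca genes. Either way, 25 of the 180 measured members (13.9%) differed 1.5-fold from Control in GlyR+IVM, against 18.2% of all measured probe sets. In DN-KATP 27 (15%) did, against 20.3%. These shares were not matched for signal. Of all probe sets with geometric means of 40 to 200, 28.5% passed in GlyR+IVM, against 3.54% of those from 4000.

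**Figure D1:**
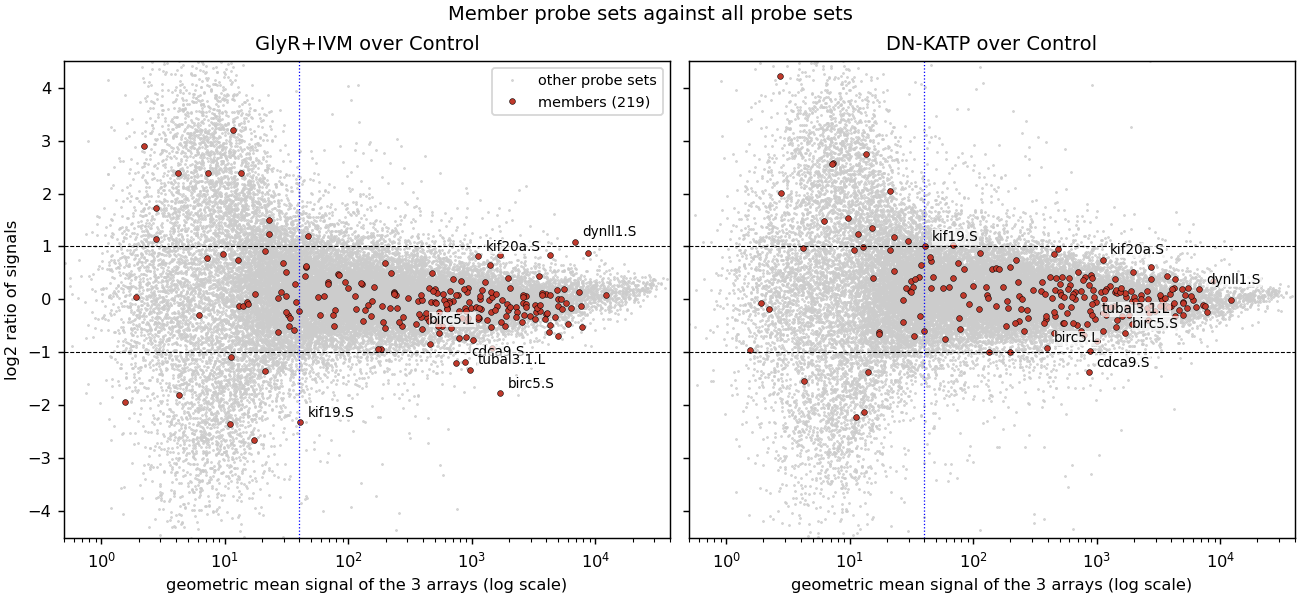
Log2 ratio to Control (vertical axis) against the geometric mean of the 3 signals (horizontal axis, log scale) for every member, over all other probe sets in grey, with 1 panel for each depolarized array. Dashed lines mark 2-fold and the dotted line a signal of 40. All members lie inside the plotted range while some other probe sets do not, and most measured members lie between the dashed lines.

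Within 2-fold, the measured members leaned slightly down in GlyR+IVM and lay with the rest of the array in DN-KATP. Their median log2 ratio to Control was −0.13 in GlyR+IVM, against 0.01 over all measured probe sets, with 67 members above 0 and 113 below. In DN-KATP the median was 0.02, against 0.04, with 95 above 0 and 85 below. The shares above 0 were 37.2% and 52.8% of measured members, against 50.8% and 54.1% of all measured probe sets. With 1 value a gene, the mean over its measured probe sets, the lean in GlyR+IVM was smaller. The member medians were then −0.10 in GlyR+IVM and 0.04 in DN-KATP, against −0.02 and −0.02 over all genes. The SD of member log2 ratios was 0.44 under GlyR+IVM and 0.40 under DN-KATP, against 0.52 and 0.57 over all measured probe sets. These SDs were not matched for signal, and dim probe sets spread more. In GlyR+IVM the member SD was smaller at signals of 40 to 200 (0.61, against 0.66) and 200 to 1000 (0.37, against 0.46). It was larger at 1000 to 4000 (0.39, against 0.35) and from 4000 (0.47, against 0.26). In DN-KATP it was smaller in each of these ranges. In GlyR+IVM the brightest members passed 1.5-fold more often than all probe sets as bright. Of the 22 members with a geometric mean signal of at least 4000, 5 differed 1.5-fold from Control there (22.7%, against 3.54% of all probe sets as bright), and 0 did in DN-KATP (against 3.69%). The 5 were probe sets of dynll1.L and dynll1.S, which were higher, and both probe sets of tubb4a.S, which were lower. The share thus rests on repeated readings of dynll1 and tubb4a and is not a trait of bright members at large.

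By role, the passenger and cdca genes had the lowest medians in both arrays, and the dynein and gamma tubulin genes had the highest. The median log2 ratio of the 23 measured passenger and cdca probe sets was −0.38 under GlyR+IVM and −0.30 under DN-KATP, with 22 and 20 of them below 0. Above 0 were 4.35% and 13%, against 50.8% and 54.1% of all measured probe sets. These 23 probe sets read 9 genes, some of them several times. For dynein and dynactin (22 measured) the median was 0.15 and 0.24, and for gamma tubulin and its complex (6 measured) 0.13 and 0.38. Kinesins (25 measured) had medians of −0.06 and 0.15, with 11 and 21 probe sets above 0. These are 44% and 84%, against 50.8% and 54.1% of all measured probe sets. All other roles had medians between −0.27 and 0.06. Scaling the arrays on the hybridization or polyA spike-ins in place of the deposited scaling shifts all ratios of an array together. The median of all measured probe sets then lies at −0.42 and −0.42 (hybridization) or −0.42 and −0.25 (polyA), and the dynein medians of both arrays, the gamma tubulin median of GlyR+IVM and the kinesin median of DN-KATP fall below 0 on both scales. The gamma tubulin median of DN-KATP is then −0.07 (hybridization) or 0.09 (polyA), over 4 probe sets. Relative to the median of all probe sets, several roles kept their side of 0 under every scaling tried. Dynein and gamma tubulin genes stayed above 0 in both arrays, and kinesins and mitotic kinases did so in DN-KATP. The measured set changed with the scaling for gamma tubulin (6, 5 or 4 probe sets) and for kinesins (25 or 24). The 6 gamma tubulin probe sets include tubgcp4.L, whose Control signal of 33.6 lay under the floor. Their place above 0 thus depends in part on which dim probe sets were counted, and a fixed set was not tested. Passenger, kinetochore, checkpoint, alpha tubulin, microtubule regulator and condensin and cohesin genes stayed below 0 in both arrays, some of them by little.

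**Figure D2:**
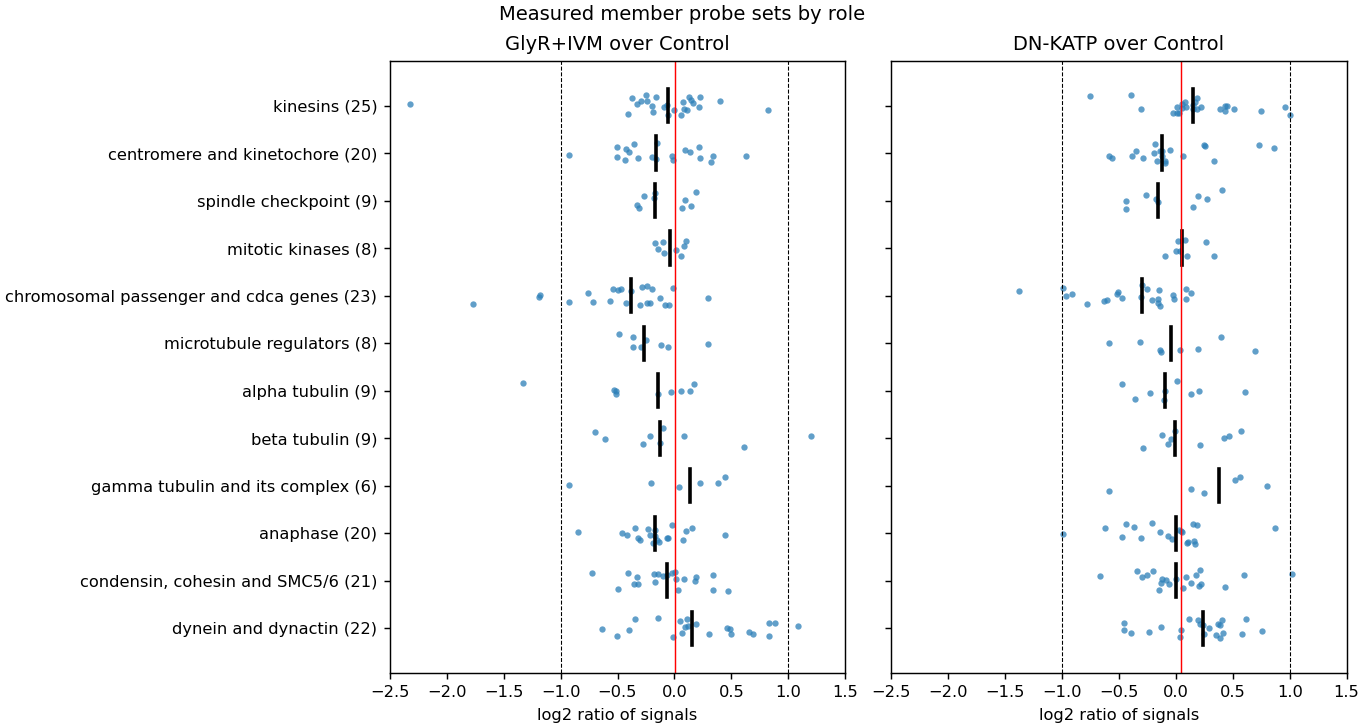
Log2 ratio to Control of every measured member, grouped by role, with 1 panel for each depolarized array and the number of measured probe sets in brackets. Black bars are role medians, the red line is the median of all measured probe sets and dashed lines mark 2-fold. Passenger and cdca genes lie mostly left of the red line in both panels, with medians of −0.38 and −0.30.

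The chromosomal passenger complex follows Aurora B from the inner centromere to the spindle midzone. It consists of the kinase, the scaffold incenp, survivin (birc5, with a second survivin gene, birc5l, in Xenopus) and a borealin or Dasra subunit (cdca8 and cdca9). The cdca9.S signal was 1571 in Control, 695 under GlyR+IVM and 605 under DN-KATP. Both depolarized arrays were thus lower than Control, 2.26-fold and 2.59-fold, and they stayed at least 2-fold lower under every scaling tried. A survivin probe set of birc5.S read 2951 in Control, 866 under GlyR+IVM and 1904 under DN-KATP, that is 3.41-fold and 1.55-fold lower. The other birc5.S probe set, of a type that can bind related transcripts, read 1123, 492 and 739.7, or 2.28-fold and 1.52-fold lower. Both birc5.S probe sets thus had the same order of arrays, with DN-KATP between the others. The birc5.L signal was 554 in Control, 375 under GlyR+IVM and 295 under DN-KATP, with DN-KATP the lowest.

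The second survivin gene differed less from Control. The birc5l.L signal was 2042 in Control, 1782 under GlyR+IVM and 2010.0 under DN-KATP. For birc5l.S 1 probe set read 2924, 2183 and 2617 and the other 6723, 4864 and 6652. All 3 were lowest in GlyR+IVM, with log2 ratios from −0.47 to −0.20, while in DN-KATP they lay between −0.16 and −0.02. The borealin gene cdca8.L, read by 3 probe sets, had log2 ratios from −0.38 to −0.02 in GlyR+IVM and from −0.16 to −0.14 in DN-KATP. Its signals were 3863, 3324 and 3463 on the brightest probe set. The scaffold gene incenp differed little in GlyR+IVM (2382 to 2017 for .L and 2179 to 2055 for .S), and in DN-KATP incenp.L was 2539 and incenp.S 1571. Over the 12 measured probe sets of these 5 genes, all 12 were below Control under GlyR+IVM and 11 under DN-KATP, with median log2 ratios of −0.40 and −0.16. The kinase of the complex stood near 0. The aurkb.L signal was 2916 in Control, 2645 under GlyR+IVM and 2722 under DN-KATP, and that of aurkb.S was 368, 389.9 and 395.

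The other cdca genes, which do not code for passenger subunits, had median log2 ratios of −0.30 and −0.31 over 11 probe sets. The cdca5.S signal was 1447 in Control, 853 under GlyR+IVM and 843 under DN-KATP, 1.70-fold and 1.72-fold lower. Its homeolog cdca5.L read 1709, 1444 and 1194, which is also lower in both but by less in GlyR+IVM. The 5 probe sets of cdca4.S did not have one pattern, with log2 ratios from −0.93 to 0.30 in GlyR+IVM and from −0.97 to 0.09 in DN-KATP. For cdca7.L, a MYC-responsive gene, 1 probe set read 281, 193 and 141 and the brighter one 3011, 2466 and 2524.

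**Figure D3:**
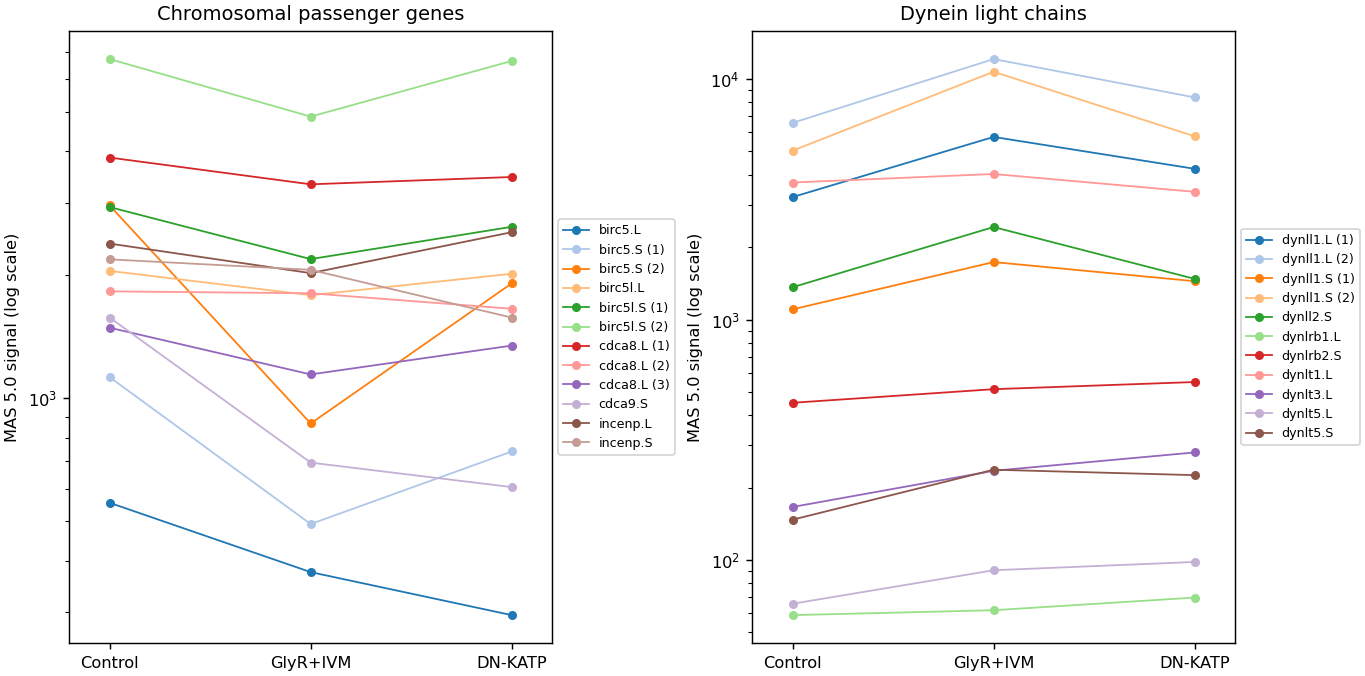
Signals in Control, GlyR+IVM and DN-KATP (log axis), each line joining the 3 arrays of 1 probe set, for chromosomal passenger genes and for dynein light chain genes. Numbers in brackets mark probe sets of a gene. The cdca9.S line falls from 1571 to 695 and 605, and the dynll1.L line has its maximum, 12111, in GlyR+IVM.

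Cytoplasmic dynein, the main motor toward microtubule minus ends, focuses spindle poles and acts at kinetochores together with dynactin. Its light chains were higher in GlyR+IVM, chosen for description after their values were seen. The LC8-type light chain gene dynll1.L, whose protein also binds many partners besides dynein, had a signal of 6572 in Control, 12111 under GlyR+IVM and 8388 under DN-KATP. On dynll1.S the signals were 5038, 10722 and 5779. Further probe sets of the pair read 3229, 5746 and 4234 for .L and 1102, 1733 and 1443 for .S. All 4 thus had the order Control, DN-KATP, GlyR+IVM, from 1.57-fold to 2.13-fold above Control in GlyR+IVM and from 1.15-fold to 1.31-fold in DN-KATP. The related dynll2.S read 1362, 2424 and 1475, the same order. On the hybridization spike-in scale the log2 ratios of the brighter probe sets of dynll1.L and dynll1.S stayed above 0 in GlyR+IVM (0.45 and 0.66), and in DN-KATP they were −0.10 and −0.26.

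The measured light chains of the other types were above Control in both arrays, except dynlt1.L in DN-KATP. For dynlt5.S, of the Tctex type, the signal was 147 in Control, 237 under GlyR+IVM and 225 under DN-KATP, and dynlt5.L read 65.8, 90.6 and 98.1. The dynlt3.L signal was 166, 235 and 280.0, while dynlt1.L read 3713, 4029 and 3396. Of 11 measured light chain probe sets, 11 had a log2 ratio above 0 under GlyR+IVM and 10 under DN-KATP, with medians of 0.65 and 0.35. Dynactin subunits did not share this. Their 8 measured probe sets had medians of −0.18 and 0.13, with 3 and 5 above 0. The lowest was dctn6.L, at 698 in Control, 449 under GlyR+IVM and 509.6 under DN-KATP, and the large subunit dctn1.L was higher in both, at 383, 539 and 509.5. The intermediate chain gene dync1i2.S read 2065, 1869 and 2130.2, close to Control in both.

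Tubulins are the bulk protein of the spindle, and the medians of their genes lay near Control. Of 9 measured alpha tubulin probe sets 3 lay above 0 under GlyR+IVM and 4 under DN-KATP, with medians of −0.15 and −0.10. For beta tubulin the same counts, 3 and 4 of 9, came with medians of −0.13 and −0.01. The farthest alpha tubulin was tubal3.1.L, with a signal of 1424 in Control, 568 under GlyR+IVM and 1108 under DN-KATP, 2.51-fold and 1.29-fold lower. Both probe sets of its homeolog tubal3.1.S, of types that can bind related transcripts, were lower in GlyR+IVM too (758, 524 and 764, and 1548, 1082 and 1696) but stood at or above Control in DN-KATP. The bright tuba1c.S probe set read 9240.4, 6476 and 7871, and tuba5.S read 7263, 7984 and 6739. The alpha tubulin with the highest mean ratio was tuba1cl.3.L, at 2362, 2457 and 3592, 1.52-fold above Control in DN-KATP but 1.04-fold in GlyR+IVM. Its probe set is also of a type that can bind related transcripts.

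Among beta tubulins both probe sets of tubb4a.S were lower in GlyR+IVM. Their signals were 6282 in Control, 3884 under GlyR+IVM and 5127 under DN-KATP for one, and 4963, 3258 and 4724 for the other. These are 1.62-fold and 1.52-fold lower in GlyR+IVM. By contrast the brighter tubb.L probe set read 11952, 12643 and 11906. The tubb4b.L signal was 5149.9, 4718 and 4997. Both stayed within 1.1-fold of Control, and the dimmer tubb.L probe set was 1.21-fold lower in GlyR+IVM (4378, 3621 and 4033). The dim tubb6.L was called higher in GlyR+IVM, from 32.5 in Control to 74.5, with 43.5 in DN-KATP. Its homeolog tubb6.S had the same order at 37.5, 57.2 and 43.5. Both counted as measured although their Control signals were under 40, a filter that can favour signals above Control, so the shared order carries little weight. With 32 added to every signal, the log2 ratio of tubb6.L in GlyR+IVM was 0.72, under 2-fold. The neural tubb2b.S read 128, 119 and 190.4, highest in DN-KATP. The neuronal beta tubulin tubb3.L and the alpha tubulins tuba1al, tuba1l and tuba8 had no measured probe set.

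**Figure D4:**
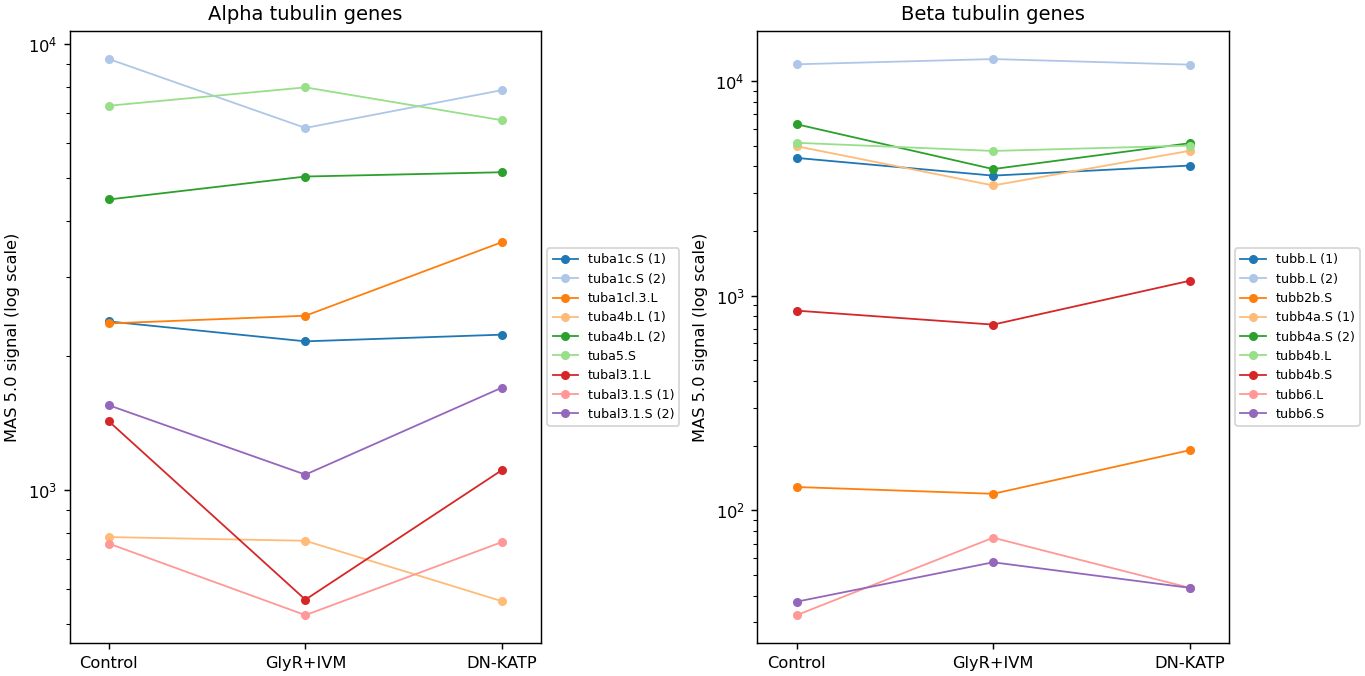
Signals in the 3 arrays (log axis) of the measured alpha and beta tubulin probe sets, each line joining 1 probe set, with numbers in brackets marking probe sets of a gene. Most lines are close to level, while tubal3.1.L drops to 568 and the dim tubb6.L, at 32.5 in Control, rises to 74.5 in GlyR+IVM.

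Gamma tubulin and its ring proteins start new microtubules at the centrosome. Both tubg1.S probe sets were higher in both depolarized arrays, with signals of 573 in Control, 745 under GlyR+IVM and 823 under DN-KATP on the brighter one and 135, 158 and 199 on the other. The dim tubg1.L read 48.2, 41.7 and 32, lowest in DN-KATP. Of the ring proteins, tubgcp4.L read 33.6, 45.7 and 58.6 and tubgcp6.L 1398, 1436 and 1529. For tubgcp3.S the measured probe set read 205, 108 and 242, lower than Control under GlyR+IVM and higher under DN-KATP. Its 3 other probe sets had geometric means under 40.

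Kinesins are mostly plus-end motors, and those that build the mitotic spindle lay close to Control. The kif11.S signal, for the motor that pushes spindle poles apart, was 1325 in Control, 1465 under GlyR+IVM and 1503 under DN-KATP. Its homeolog kif11.L read 459, 500.3 and 617. The minus-end motor gene kifc1.L read 3271, 3456 and 4461, and the microtubule depolymerase gene kif2c.S 700.0, 742 and 787. These 4 were all lowest in Control, by at most 1.36-fold. The motor gene kif22.S, for a kinesin that pushes chromosome arms, read 2457, 1954 and 2467. Another chromosome-bound motor, kif4a.S, read 404, 339.8 and 545. The gene kif18a.L, whose product damps the swinging of chromosomes at the metaphase plate, read 256, 228 and 258. All 3 were lowest in GlyR+IVM. The central spindle motor kif23.S was read by 2 probe sets, at 2581, 2427 and 3370.2 and at 1456, 1572 and 1694. The depolymerase gene kif2a.S read 1593, 2105 and 2268, higher in both arrays, while its homeolog kif2a.L read 509, 488 and 542. Of kif15, a motor that helps keep the spindle bipolar, .S read 1938, 2249 and 1905 and .L 654, 574 and 679, on opposite sides of Control in GlyR+IVM.

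Single kinesin probe sets departed further. The signal of kif20a.S, a motor that carries the passenger complex to the midzone, was 781 in Control, 1377 under GlyR+IVM and 1312 under DN-KATP, 1.76-fold and 1.68-fold higher. The probe sets of its homeolog kif20a.L read 3480.2, 2692 and 3685 and 2875, 2744 and 2191, so neither was higher in both. The neuronal kif21a.L was 375, 419.7 and 731, 1.95-fold higher in DN-KATP and 1.12-fold in GlyR+IVM. The most unequal member was kif19.S, named for a motor that in mouse trims the tips of motile cilia. It read 55.1 in Control, 11.0 under GlyR+IVM and 110.3 under DN-KATP, a log2 ratio of −2.32 and 1.00. These signals straddle the floor of 40, and with 32 added to every signal before the ratio the values were −1.02 and 0.71. Motors of transport and cilia were mostly flat. The conventional kinesin gene kif5b.S read 1102, 1146 and 1225. Of the kinesin that carries cargo into cilia, kif3a.L read 420.0, 419 and 339, kif3b.S 562, 476 and 584, and the measured probe set of the adaptor kifap3.L 75.5, 61.4 and 44.8, the last being 1.69-fold lower in DN-KATP.

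Kinetochore and centromere genes leaned to lower signals, within 2-fold. Of 20 measured probe sets 13 were below Control under GlyR+IVM and 14 under DN-KATP, with medians of −0.16 and −0.12. The farthest was cenpa.L, the histone variant that marks the centromere, at 1975 in Control, 1041 under GlyR+IVM and 1509 under DN-KATP, 1.90-fold and 1.31-fold lower. The Ndc80 complex, which holds the microtubule, did not have one direction. Its subunit genes spc24.L (326, 242 and 217) and spc25.L (1071, 811 and 874) were lower in both, nuf2.S (320.4, 226 and 280.3) was lower in both, and nuf2.L (1117, 1412 and 1335) was higher in both. The bright ndc80.S read 1433, 1417 and 1314, close to Control, and the dim ndc80.L 93.4, 65.8 and 73.3. The highest mean ratio in the role belonged to 1 of the probe sets of cenps.L, at 33.0, 51.2 and 54.9, while a brighter one of the same gene read 220.0, 164 and 196. Several inner kinetochore subunits that sit on cenpa chromatin lay near Control. The cenpl.S signal was 1029, 924 and 994 and that of cenpn.S 1260.2, 988 and 1177. The cenpk.L probe sets read 668, 597 and 607 and 223, 245 and 233. The cenpt.L probe set that was measured read 169, 136 and 155. All of these stayed within 1.28-fold of Control. An exception by size was cenpv.L, at 352, 411 and 640.2, which was 1.82-fold higher in DN-KATP and 1.17-fold in GlyR+IVM. Of the inner kinetochore gene cenpm.L, the dimmer probe set read 92.9, 80.9 and 62.8, 1.48-fold lower in DN-KATP. The brighter one read 247, 263 and 218. The 3 measured cenpp.L probe sets had log2 ratios from −0.02 to 0.32 in GlyR+IVM and from −0.09 to 0.33 in DN-KATP.

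Among spindle checkpoint genes and mitotic kinases no measured probe set differed 1.5-fold from Control in either array. Of the 9 checkpoint probe sets 5 were below Control in each array, with medians of −0.17 and −0.16. The checkpoint kinase gene bub1.L read 1948, 1573 and 2165 on one probe set and 809, 897 and 1069 on another. Its relative bub1b.L read 780.4, 892 and 944. The bright bub3.L probe set read 5825, 5149 and 5210.1. The other measured bub3.L probe set read 115, 121 and 102. Thus bub1b.L was slightly higher in both arrays, while the bub3.L probe sets were on opposite sides of Control in GlyR+IVM. For mad2l1.S, the core inhibitor of the anaphase-promoting complex, both measured probe sets were lower in both arrays (1286, 1024 and 1074, and 250.5, 223 and 185), as was mad2l2.S (438, 364 and 323), whose product acts in DNA repair as well. Among the kinases aurka.L, whose product matures the spindle poles, read 2567, 2664 and 2593, and its homeolog aurka.S 1192, 1059 and 1194. The plk1.S probe sets, for a kinase needed at entry into mitosis, read 5107, 5169 and 5402 and 3613, 3366 and 3693. These 4 probe sets stayed within 1.13-fold of Control. The centriole kinase plk4.L read 589, 553 and 708 and 209.8, 225 and 265, higher than Control in DN-KATP on both probe sets.

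Genes of anaphase leaned down in GlyR+IVM and were split in DN-KATP. Of 20 measured probe sets 16 were below Control under GlyR+IVM and 10 under DN-KATP, with medians of −0.17 and −0.00. The activator cdc20.S read 6798, 6042 and 6157, and the cdc20.L probe sets 3468, 2961 and 3530.2 and 1886, 1412 and 1940.0. The subunit gene cdc27.S read 813, 702 and 841. All of these were lowest in GlyR+IVM. Separase, the protease that cuts cohesin, was read as espl1.S at 535, 297 and 607 and as espl1.L at 635, 625 and 681, so that the homeologs were unlike in GlyR+IVM. All 3 probe sets of the small subunit gene anapc13.2.L were lower in both arrays and lowest in DN-KATP, at 503, 485 and 406, at 178, 156 and 89.1 and at 559, 453 and 362. Other small or scaffold subunits of the anaphase-promoting complex differed in sign. The bright anapc11.L, for the subunit that binds the ubiquitin-conjugating enzyme, read 3174, 4329 and 3025, higher in GlyR+IVM only. The anapc16.L signal was 1012, 797 and 729.8, lower in both, and that of anapc4.L 381, 277 and 426, lower in GlyR+IVM only. The 2 probe sets of anapc15.S read 2431, 2561 and 2728 and 956, 859 and 826, on opposite sides of Control. The highest mean ratio was that of anapc7.L, at 97.2, 86.1 and 178, while anapc7.S read 625, 695 and 694.

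Condensin and cohesin genes lay near Control. Of 21 measured probe sets 12 were below Control under GlyR+IVM and 11 under DN-KATP, with medians of −0.07 and −0.00. Condensin's ATPase genes smc2.L (3522, 3133 and 3515) and smc4.L (5044, 5103 and 4820.4) and the 3 probe sets of cohesin's smc1a.L (log2 ratios from −0.33 to −0.07 and from −0.20 to 0.06) stayed within 1.3-fold. The dim smc3.S read 135, 133 and 204, and smc3.L 289.7, 297 and 328. A probe set of ncaph2.L, a condensin II subunit gene, was called higher in DN-KATP at 49.9, 62.9 and 101, but the brighter probe sets of that gene read 678, 858 and 915 and 578, 435 and 531. The other condensin subunits were close to Control. The bright ncaph.L and ncapg.L read 5022, 5744 and 5838 and 3964, 4212 and 4598, up to 1.16-fold higher. The measured ncapd2.S probe sets read 1209, 1214 and 1091 and 1321, 1166 and 1077. Over 10 measured condensin probe sets the medians were 0.05 and 0.17. In the DNA repair complex that shares the SMC fold, smc5.S was lower in both at 322, 257 and 253, and the brightest smc6.1.L probe set read 685, 485 and 575. The other measured smc6.1.L probe set, a dim one, was higher in both at 72.2, 100.3 and 76.7. The lowest in the group was smco4.L at 1089, 659 and 684, which has no place in an SMC complex.

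Regulators of microtubule growth were lower in GlyR+IVM on 7 of 8 measured probe sets, with a median of −0.27. In DN-KATP they were split evenly, with a median of −0.05. The highest log2 ratio in DN-KATP, 0.69, was that of a probe set not named here, which was below Control in GlyR+IVM. The plus-end tracking gene mapre1.L read 1397 in Control, 1086 under GlyR+IVM and 930.1 under DN-KATP, and mapre1.S 4358, 3391 and 3955, lower in both. The tubulin-sequestering stmn1.L read 5150.4, 3682 and 4134, and stmn1.S 957, 922 and 983. The spindle assembly factor tpx2.S read 8023, 7405 and 7321, and tpx2.L 4093, 3441 and 4671. Of mapre2.S, 1 probe set was measured, at 58.1, 71.2 and 76.6. The neuronal stathmins stmn2, stmn3 and stmn4 were read by 6 probe sets, all under 40 in all arrays.

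The depolarized arrays were also set against each other, which does not involve the Control array. In DN-KATP 8 members were at least 2-fold above GlyR+IVM (3.65%, against 3.29% of all probe sets) and 0 were at least 2-fold below (against 2.37%). The measured ones were kif19.S, birc5.S, anapc7.L, espl1.S and tubgcp3.S, and the remaining ones, tuba8.L, ncapd2.S and dync2i2.L, had geometric means under 40. The signal of birc5.S was 866 under GlyR+IVM and 1904 under DN-KATP, a 2.20-fold difference, and that of espl1.S was 297 and 607. In the opposite direction dynll1.S was the farthest, at 10722 against 5779, a log2 ratio of −0.89. Over measured members the median log2 ratio of DN-KATP to GlyR+IVM was 0.10, against 0.03 over all measured probe sets. Of the members 119 were above 0 (66.1%, against 53.2% of all measured probe sets) and 61 below.

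Genes measured more than once show how far readings of a gene lay apart. For 31 symbols with at least 2 measured probe sets, the median range of their log2 ratios was 0.26 under GlyR+IVM and 0.19 under DN-KATP, and the largest were 1.23 (cdca4.S) and 1.14 (ncaph2.L). For 32 genes with both homeologs measured, the .L and .S log2 ratios differed by a median of 0.29 under GlyR+IVM and 0.33 under DN-KATP, and by at least 0.5 for 8 and 7 genes. The dynll1 homeologs differed by 0.02 and 0.08, though a dynll1.L probe set is of a type that can bind related transcripts. The kif20a homeologs differed by 1.04 and 0.90, and those of tubg1 by 1.14 in DN-KATP. These gaps are between readings of the same RNA pools and do not measure how pools of embryos vary. The cdca9 gene was read by 1 probe set, and no .L copy of it was a member.

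**Figure D5:**
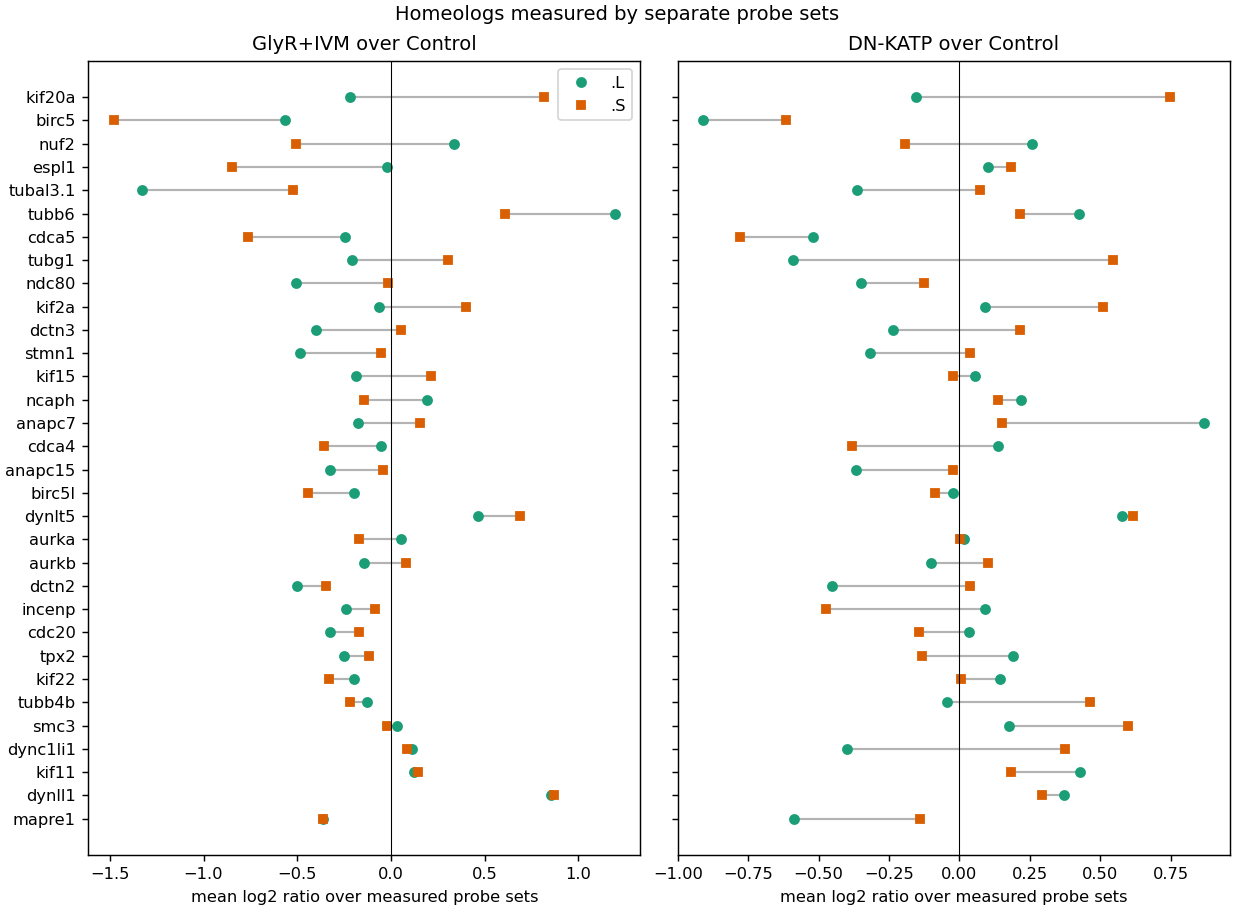
Log2 ratios to Control of the .L copy (circles) and the .S copy (squares) for the 32 genes with both measured. Each row is a gene, and each ratio is averaged over that copy's measured probe sets. A grey line joins the copies, with 1 panel for each depolarized array. Short lines are pairs with similar ratios, and the ratios of kif20a.L and kif20a.S are 1.04 apart in GlyR+IVM.

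Mitotic genes whose names do not start with these stems were counted beside them. They include spindle matrix, outer kinetochore, cytokinesis, centrosome, cohesin and anaphase-promoting complex genes, tubulin cofactors and top2a. Of their 140 probe sets for 67 genes 129 were measured, with median log2 ratios of −0.04 under GlyR+IVM and 0.05 under DN-KATP. Of the 140, 1 was called higher in both arrays (0.714%, against 1.25% of all probe sets) and 0 lower in both (against 0.471%). The former was a dim probe set of top2a.L, the topoisomerase that untangles chromosomes (92.7, 211 and 215). A brighter probe set of top2a.L read 2976, 4019 and 3321 and was not called. In GlyR+IVM 1 was called higher (0.714%, against 3.41%) and 3 lower (2.14%, against 2.02%). In DN-KATP 4 were called higher (2.86%, against 3.89%) and 3 lower (2.14%, against 1.83%). Among those lower was rcc1.S in GlyR+IVM alone, whose product makes the Ran signal around chromosomes (1998, 920.4 and 1416). Another was the dynein regulator nde1.L, in DN-KATP alone (567, 340.6 and 206). Their homeologs rcc1.L (6379.6, 6230.2 and 6753) and nde1.S (414, 362 and 341) were not called.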

How the data were processed

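RNA of 3 pools of 50 whole embryos was hybridized to GeneChip *X. laevis* Genome 2.0 arrays. Each deposited intensity is a linear MAS 5.0 signal that the authors computed and scaled array by array in Bioconductor. The software version is not given in the sources used here, the values carry no present or absent calls, and such scaling can hide a shift common to all genes. The values were used as deposited, after 160 control and reporter probe sets had been left out. Symbols came from the platform annotation, in which 15495 probe sets have 1 symbol and 279 several; of the latter 6 held a symbol with one of the stems and were not members. All 219 members matched a gene in RefSeq.

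Log2 ratios of each depolarized array to Control, and of DN-KATP to GlyR+IVM, were taken in Python 3.11 without a pseudocount. The 2-fold rule is that of the methods, with a signal of 40 in place of a present call. Medians cover probe sets with a geometric mean of at least 40. Since 2 of the 3 arrays are depolarized, this filter can favour probe sets that are higher than Control in both. The measured tubb6.L, tubb6.S, tubgcp4.L and 1 cenps.L probe set had Control signals under 40. With 1 array a group there was no test, and the number of arrays limits the precision. Probe sets whose design can bind related transcripts (34 members) were kept, and paralogous tubulins may share signal. Named were members called the same way in both arrays, the extremes of each role by mean log2 ratio, the extremes between depolarized arrays, and a list of core mitotic genes and tubulins. The dynein light chains, cdca5, cdca7, dynactin subunits, tubgcp3, further kinesins, centromere, anaphase and SMC subunits and the genes outside the name rule were named after their values were seen. Members and lists were chosen with earlier results of these data known. Other floors (0, 20 and 100), folds (1.5 and 3) and scalings, an offset of 32, leaving out cross-binding probe sets and 1 value a gene were tried.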

Additional observations from a re-analysis of the deposited data

Results flagged for a closer look

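The probe set of kif19.S had a log2 ratio to Control of −2.32 in GlyR+IVM and of 1.00 in DN-KATP, on signals of 55.1, 11.0 and 110.3. It was singled out because the arrays moved in opposite directions. With 1 array a group the difference was not tested.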

How the results depend on the processing

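The counts are small and depend on thresholds and scaling, and with 1 array a group no replicate could be left out. No paired analysis was possible because each group holds 1 array and no test was made. The order used here is higher in both, lower in both, higher and lower in GlyR+IVM, higher and lower in DN-KATP, which with the reported settings is 0, 1, 2, 5, 4 and 1 of 219 probe sets. Without a signal floor the counts were 6, 3, 11, 11, 14 and 5 (of all probe sets 6.63%, 2.37%, 11.9%, 7.8%, 12.2% and 6.93%). With a floor of 20 they were 2, 2, 6, 8, 7 and 3 (of all probe sets 2.85%, 1.17%, 7.03%, 4.13%, 7.36% and 3.56%). With a floor of 100, 1 was higher under GlyR+IVM and 2 under DN-KATP (of all probe sets 1.46% and 1.8%). Lower in GlyR+IVM were then 4 (1.83%, against 0.973% of all probe sets). At 1.5-fold the counts were 3, 6, 10, 15, 17 and 15 (of all probe sets 3.88%, 2%, 8.61%, 6.13%, 10.3% and 5.83%). At 3-fold 0 were lower in both, 0 were higher and 2 lower in GlyR+IVM, and 1 was higher in DN-KATP. The shares of all probe sets were then 0.139%, 1.15%, 0.684% and 1.3%. On the hybridization spike-in scale they were 0, 6, 0, 15, 0 and 16, and on the polyA spike-in scale 0, 3, 0, 15, 0 and 7. These scales move all genes: of all probe sets 6.32% and 6.31% were then lower in GlyR+IVM, against 6.85% of members on either, and 6.58% and 4.01% in DN-KATP, against 7.31% and 3.2%. Lower in both were 2.22% and 1.59% of all probe sets, against 2.74% and 1.37%. Higher in both were 0.299% and 0.36% of all probe sets, against 0 members. Higher in GlyR+IVM were 0.927% on either scale and in DN-KATP 1.15% and 1.68%, against 0 members. In DN-KATP 1 was higher and 5 were lower with a common median, and 1 was higher and 3 were lower after quantile normalization (of all probe sets 2.75%, 2.5%, 2.76% and 2.57%). With 32 added to every signal 1 was higher under GlyR+IVM and 0 under DN-KATP (of all probe sets 1.17% and 1.48%). Lower in GlyR+IVM were then 5 (2.28%, against 0.825% of all probe sets). With 1 value a gene 1 was higher in each depolarized array, for which no share over all genes was taken. The median log2 ratio of members in GlyR+IVM, −0.13, was −0.56 on either spike-in scale. In DN-KATP it changed sign, from 0.02 to −0.11 with a common median, −0.44 on the hybridization and −0.28 on the polyA spike-in scale. The all-gene median moved with it. Which scale is right was not tested. Leaving out cross-binding probe sets moved none of these counts or medians beyond the limits set.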
